A study of Mus musculus with 6 samples.

Results

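The guanylate-binding protein genes Gbp2, Gbp3, Gbp4, Gbp5, Gbp6, Gbp7, Gbp8 and Gbp9 were followed across 6 RNA sequencing libraries of injured mouse muscle. These 8 genes were taken by symbol from a deposited table of 52369 genes, in which values are given as fragments per kilobase of transcript scaled to the library's total reads (FPKM), a level per length. They were chosen by their FPKM values in control against L7, with that difference already known, so their levels and differences are given as a description and were not used as a test. All 8 had a mean of at least 1 FPKM over the 6 libraries and were among the 14788 genes that passed this filter. The libraries came from tibialis anterior, a muscle of the front of the lower leg, of C57BL/6 mice labelled 6 weeks old. Every muscle had been injured at 5 weeks of age with 50 µl of 10 µM cardiotoxin, a snake toxin that destroys muscle fibres and starts their regeneration. Every muscle was also given repeated injections of 6.25 µg of pcDNA3.1 plasmid with the EntransterTM-in vivo reagent in 50 µl of 10% glucose, the later injections on days 2 and 4, and was taken on day 7. In the 3 control libraries the genotype is labelled control, with nothing said of what that plasmid carried, and in the 3 L7 libraries Linc-smad7, a long non-coding RNA, was overexpressed. There was no library of uninjured muscle or of muscle without plasmid, so levels outside this setting were not measured. No gene in the table carries the name Linc-smad7, so its own level was not checked. The labels do not say whether the 3 libraries of a group came from separate animals, so every p-value measures the spread between these libraries, which may be partly technical.

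Guanylate-binding proteins are large GTPases of the dynamin superfamily that cells make in quantity after exposure to interferon gamma. The cytokine acts through its receptor and the kinases Jak1 and Jak2 on genes with an interferon gamma activated site (GAS), while Irf1 and its relatives bind the interferon-stimulated response element (ISRE). The proteins assemble on the membranes of intracellular pathogens and of the vacuoles that hold them, and they help start inflammasome signalling. In injured muscle, macrophages, lymphocytes and resident cells can all respond to interferon.

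The libraries held 19420012 to 24663153 reads assigned to genes. Among them, L7 replicate 3 was the least alike. Its correlation with the others over genes was 0.920 to 0.951, where every other library reached at least 0.982 with some library. Its 10 most abundant genes took 14.1% of its reads, against 6.57% to 8.40% elsewhere, and its summed FPKM of 10 adult fast fibre genes was 100669, against 22327 to 36629 in the others. The labels give no sex, but the libraries differed in sex-linked genes. Control replicates 1 and 3 and L7 replicate 1 held 3185 to 4184 reads of Y-linked genes. Control replicate 2, L7 replicate 2 and L7 replicate 3 held at most 2 such reads and had Xist at 40.7 to 92.0 FPKM. This split cut across the groups unevenly, with 2 of 3 control libraries and 1 of 3 L7 libraries in the set with Y-linked reads. Within a group, libraries with and without Y-linked reads thus appear to come from different animals.

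The family lies in a cluster on mouse chromosome 3 and another on chromosome 5 (GRCm38/mm10, GENCODE M21 gene models). On the plus strand of chromosome 3 were Gbp5 (ENSMUSG00000105504, chr3:142493978-142522344), Gbp7 (ENSMUSG00000040253, chr3:142530342-142550149), Gbp3 (ENSMUSG00000028268, chr3:142560026-142573209) and Gbp2 (ENSMUSG00000028270, chr3:142620602-142638008), with Gbp2b (ENSMUSG00000040264, chr3:142594847-142619179) between Gbp3 and Gbp2. On the minus strand of chromosome 5 were Gbp8 (ENSMUSG00000034438, chr5:105014150-105139540), Gbp9 (ENSMUSG00000029298, chr5:105077630-105139539), Gbp4 (ENSMUSG00000079363, chr5:105115767-105139586) and Gbp6 (ENSMUSG00000104713, chr5:105270702-105293698). The Gbp4, Gbp8 and Gbp9 models overlap on that strand and share 60 or 61 exon bases, 0.81% to 1.77% of each gene's exon bases.

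The bases before the transcription starts are shown for the 5 family genes with a RefSeq promoter window (GRCm38.p6), all of them on chromosome 3. The members Gbp4, Gbp6, Gbp8 and Gbp9 had no such window, so these letters cannot bear on the profile of the members as a set. The ISRE letters GAAANNGAAA were searched on both strands of the 250 bases before each start, and the GAS letters TTCNNNGAA, which read the same on both strands. All 5 genes had an ISRE match, as did 2.98% of 32851 promoter windows of that length. A match is a description of the letters and not a bound site. The 5 stretches of 30 bases that hold these matches follow on the plus strand, which is the strand of the genes. Capitals mark the match, which lies on the minus strand and so reads as its reverse complement. The match of Gbp2 lies within the annotated first exon of the GENCODE model, whose start lies before the RefSeq start. The part of the Gbp2 window outside annotated exons held 0 ISRE matches.
Gbp5, chr3:142496759-142496788: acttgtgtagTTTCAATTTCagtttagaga
Gbp7, chr3:142530273-142530302: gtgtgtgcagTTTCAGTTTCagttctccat
Gbp3, chr3:142559992-142560021: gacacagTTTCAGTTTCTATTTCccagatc
Gbp2b, chr3:142594700-142594729: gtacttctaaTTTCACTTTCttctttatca
Gbp2, chr3:142620594-142620623: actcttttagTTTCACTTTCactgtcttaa

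The matching letters were the same in the neighbouring genes Gbp2 and Gbp2b, and the same in Gbp7 and the first of 2 overlapping matches of Gbp3. The match began 45 to 59 bases before the RefSeq start in Gbp2, Gbp3 and Gbp7, and 137 and 165 bases before it in Gbp2b and Gbp5. Gbp3 has another annotated start whose window held no match to either motif. The GAS letters were found in Gbp5 and Gbp7, with 2 matches each, and in 7.02% of all windows. Gbp7 is shown whole, since its 250 bases hold both motifs close together and no annotated exon. Its GAS matches began 106 and 87 bases before the start and its ISRE match 53 bases before it, all in capitals.
Gbp7, chr3:142530086-142530335, plus strand: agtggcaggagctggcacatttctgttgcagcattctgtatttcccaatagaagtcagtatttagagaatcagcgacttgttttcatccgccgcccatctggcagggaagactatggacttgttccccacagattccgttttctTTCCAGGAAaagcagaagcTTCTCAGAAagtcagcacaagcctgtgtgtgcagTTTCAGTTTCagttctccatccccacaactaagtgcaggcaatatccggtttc

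In Gbp5 the motifs lay farther apart, in the order GAS, ISRE and GAS, at 245, 165 and 52 bases before the RefSeq start. That start, chr3:142496934, lies inside the GENCODE model of Gbp5, which begins at chr3:142493978, so the window lies within that gene model. The part of its window outside annotated exons is shown for comparison, with the same marking.
Gbp5, chr3:142496684-142496899, plus strand: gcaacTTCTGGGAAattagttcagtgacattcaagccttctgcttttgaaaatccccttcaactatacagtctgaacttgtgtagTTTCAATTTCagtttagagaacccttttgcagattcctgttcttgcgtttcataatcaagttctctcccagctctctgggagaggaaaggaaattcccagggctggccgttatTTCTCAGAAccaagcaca

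The mean level of each of the 8 genes was lower in L7 than in control muscle, by 1.86 times for Gbp9 to 2.73 times for Gbp2. No gene, in the family or elsewhere, passed the test across all genes. Over all genes that passed the filter, 70.8% were lower in L7 by log2 difference. In 4 of the 8 genes every L7 library was below every control library, as in 13.7% of all genes. In the other 4, control replicate 2 lay within the range of the L7 libraries. In bulk tissue, fewer cells that express a gene and less of its RNA per cell cannot be told apart.

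Gbp2 and Gbp5 both end in a motif for prenylation, a lipid anchor that lets the protein attach to membranes. Gbp2, which is known for limiting the parasite Toxoplasma, was at 344, 142 and 346 FPKM in control replicates 1 to 3 and at 89.6, 147 and 68.2 FPKM in L7 replicates 1 to 3. Control replicate 2 was low among the controls and L7 replicate 2 high among the L7 libraries, and there the groups overlapped. The group means were 277 ± 117 FPKM in control and 102 ± 40.7 FPKM in L7 (SD, n = 3), a log2 difference of -1.40 ± 0.41 (SE) on the log2(FPKM + 1) scale used throughout. Gbp5, which has been linked to activation of the NLRP3 inflammasome, was at 87.5, 45.4 and 96.7 FPKM in control and 29.2, 40.5 and 20.6 FPKM in L7. The same libraries were the low control and the high L7 library, but here the groups did not overlap, with 4.86 FPKM between them. The means were 76.5 ± 27.3 and 30.1 ± 9.99 FPKM, and the log2 difference was -1.30 ± 0.34 (SE).

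Gbp3, Gbp6, Gbp7 and Gbp9 are known to gather on the vacuole of Toxoplasma in cells treated with interferon gamma. Gbp3 was at 222, 149.6 and 206 FPKM in control and 94.7, 124 and 90.8 FPKM in L7. Every L7 library was below every control library, by 25.9 FPKM at the closest, and Gbp3 had the smallest spread of the 8 genes (coefficient of variation 19.8% in control and 17.4% in L7). The log2 difference was -0.89 ± 0.21 (SE), from 192 ± 38.1 to 103 ± 18.0 FPKM. Gbp7, which has also been linked to assembly of the phagocyte NADPH oxidase, was at 67.5, 37.2 and 61.3 FPKM in control and 25.6, 33.1 and 19.6 FPKM in L7. These groups did not overlap, with 4.08 FPKM between control replicate 2 and L7 replicate 2, and the log2 difference was -1.04 ± 0.27 (SE).

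Gbp9 was at 71.8, 40.8 and 73.1 FPKM in control and 36.7, 40.1 and 23.2 FPKM in L7. Its groups were apart by only 0.712 FPKM. After the libraries were rescaled by the median of ratios, a scaling that does not let abundant genes set a library's total, control replicate 2 was at 38.6 and L7 replicate 2 at 38.9, so that the groups overlapped. The log2 difference of Gbp9 was -0.86 ± 0.29 (SE). Gbp6 was at 18.5, 9.18 and 19.7 FPKM in control and 5.13, 10.8 and 7.63 FPKM in L7. Control replicate 2 was below L7 replicate 2, so the groups overlapped. In unscaled FPKM, Gbp6 was the only member whose lowest L7 library was replicate 1 and not replicate 3. After median of ratios scaling, L7 replicate 1 was also lowest in Gbp2, Gbp3, Gbp4, Gbp7 and Gbp8, as for Gbp3 at 91.2 against 117.2 in replicate 3. The log2 difference of Gbp6 was -0.91 ± 0.34 (SE), and it shares much of its sequence with Gbp10.

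Gbp4 and Gbp8 lie beside Gbp9 on chromosome 5. Gbp4 was at 131, 54.0 and 126 FPKM in control and 31.3, 62.9 and 30.7 FPKM in L7. The control replicates 1 and 3 were more than 62.9 FPKM, the highest L7 value, but control replicate 2 was below it, and the groups overlapped. The log2 difference of Gbp4 was -1.27 ± 0.41 (SE). Gbp8 was at 24.2, 9.19 and 30.5 FPKM in control and 7.03, 17.1 and 6.55 FPKM in L7. It had the widest spread of the 8 genes (coefficient of variation 51.4% in control and 58.1% in L7) and the least certain log2 difference, -0.96 ± 0.49 (SE).

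**Figure D1:**
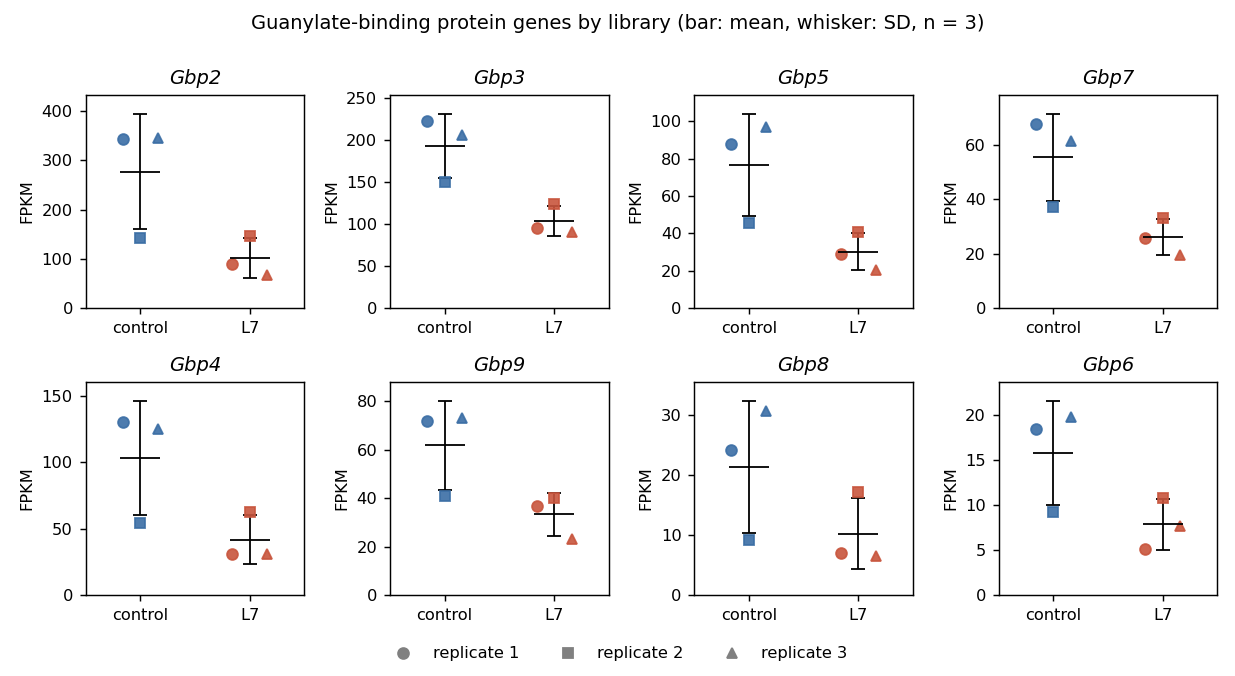
FPKM of each of the 8 genes in the 3 control and 3 L7 libraries, with a vertical axis of its own for each gene starting at 0, points for libraries, a bar for the mean and whiskers for the SD (n = 3). In all 8 panels the lowest control point is replicate 2 and the highest L7 point is replicate 2, as for Gbp2 at 142 and 147 FPKM.

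Of the other family genes in the table, Gbp10 was at a level like that of Gbp6, and Gbp2b and Gbp11 were scarce. Gbp10 was at 17.2, 8.25 and 27.2 FPKM in control and 5.45, 16.01 and 11.6 FPKM in L7, a log2 difference of -0.59 ± 0.48 (SE). Gbp11, annotated as a polymorphic pseudogene, was at 0.896 to 2.42 FPKM in control and 0.381 to 1.13 FPKM in L7 (log2 difference -0.69 ± 0.28, SE). Gbp2b was at 0.746, 0.146 and 5.52 FPKM in control and 0.0958, 0.461 and 0.268 FPKM in L7. Its mean in control rests on 384 reads in control replicate 3, where the other 5 libraries held 6 to 44. The groups overlapped in all 3 of these genes. The pseudogene Gbp2-ps was listed at 0 in all 6 libraries.

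Across the 14788 genes, limma called none at an adjusted p under 0.05 (Benjamini-Hochberg, two-sided, 0.0% called), and the smallest adjusted p was 0.468 over all genes and 0.580 among the 8. At an unadjusted p under 0.05, limma had 7 of the 8 genes lower, all except Gbp8 at 0.0886, beside 4.25% of all genes, and 5.9% of all genes passed in either direction. A voom fit in limma on reads recovered from the FPKM values also called none, with 6 of the 8 genes lower at an unadjusted p under 0.05, beside 3.14% of all genes. The groups did not overlap, with L7 lower, in 4 of the 8 genes, where 13.7% of all genes met that description and 5.49% met it with L7 higher. Since the members were chosen for this difference, these counts are only a description. The median log2 difference of the 8 genes was -1.001, beside -0.15 over all genes, of which 70.8% were lower in L7. Without L7 replicate 3 the median of the 8 was -0.89, and 4 of the 8 groups still did not overlap, where the background share was 15%.

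The authors' deposited table has mean read counts per group, scaled for depth, and its own p-values. Of the 8 genes, 6 are marked in the authors' deposited table as significant, at an unadjusted p under 0.05, all of them lower in L7, beside 0.751% of the 31690 genes with a value there that are lower at that p. Gbp6 with an unadjusted p of 0.0521 and Gbp8 with 0.146 in the authors' deposited table are not marked. The authors' deposited table gives all 8 genes an adjusted p of 1, and control levels 1.66 times (Gbp3) to 2.47 times (Gbp2) those of L7.

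**Figure D2:**
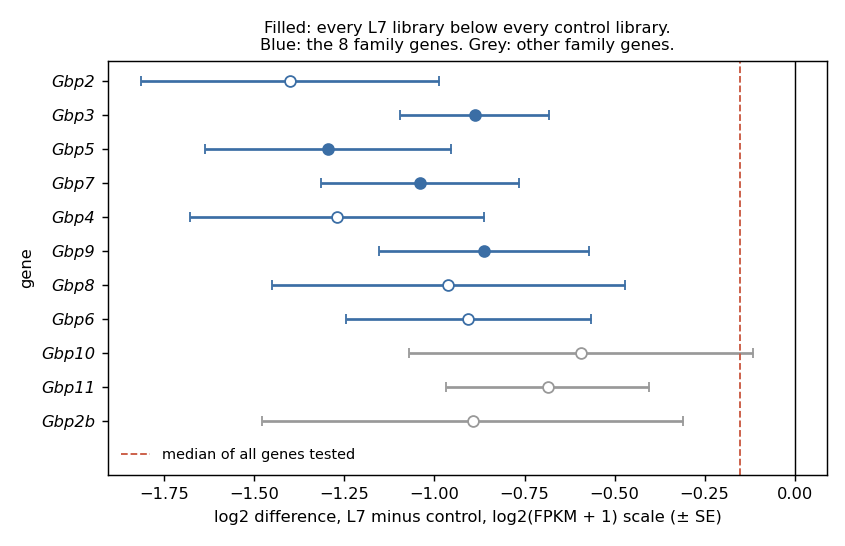
Log2 difference of each family gene, L7 minus control on the log2(FPKM + 1) scale, with its standard error from the limma fit (3 libraries a group). All 11 points lie left of the dashed median of all genes at -0.15, from -1.40 for Gbp2 to -0.59 for Gbp10, and the error bar of Gbp10 reaches past the dashed line.

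In all 8 genes replicate 2 held the same place within each group. Control replicate 2 was the lowest control in 8 of 8 genes, at 0.336 (Gbp8) to 0.699 (Gbp3) of the mean of control replicates 1 and 3, with a median of 0.487. Over all genes that ratio had a median of 0.990, and control replicate 2 was lowest in 33.5% of genes. L7 replicate 2 was the highest L7 library in 8 of 8 genes, at 1.33 (Gbp3) to 2.51 (Gbp8) times the mean of L7 replicates 1 and 3, where the median over all genes was 1.115 times and 34.2% of genes had that order. Leaving out either of these libraries separated the groups in 8 of 8 genes, where 22% of all genes were separated in that direction without control replicate 2 and 21.3% without L7 replicate 2.

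Both of these replicates were among the 3 libraries with Xist and without Y-linked reads, so the difference was also taken within libraries alike in sex-linked genes. With Y-linked reads, control replicates 1 and 3 averaged 1.97 (Gbp9) to 4.09 (Gbp4) times L7 replicate 1, which was below both in 8 of 8 genes and in 33.9% of all genes. With Xist, control replicate 2 was 0.779 (Gbp8) to 1.48 (Gbp5) times the mean of L7 replicates 2 and 3 and was above both in 4 of 8 genes, as in 49.5% of all genes. These sets hold a single library on a side and have no replicate check. A fit with the sex-linked split as a covariate, chosen after seeing the data, gave a median log2 difference of -0.89 for the 8 genes. The part of this split in the result was not tested.

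Levels per length formed 3 tiers in both groups. In control muscle Gbp2 and Gbp3 were highest and overlapped with each other, then came Gbp4, Gbp5, Gbp9 and Gbp7, each overlapping with its neighbour, and then Gbp8 and Gbp6, which also overlapped. Ranges did not overlap between Gbp3 and Gbp4 or between Gbp7 and Gbp8. In L7 muscle the tiers held the same genes, with the means of Gbp3 and Gbp2 at 103 and 102 FPKM and Gbp9 placed ahead of Gbp5. Gbp2 was above Gbp3 in control replicates 1 and 3 (1.55 and 1.68 times) and in L7 replicate 2 (1.19 times), and below it in control replicate 2 (0.946), L7 replicate 1 (0.946) and L7 replicate 3 (0.751). So Gbp2 exceeded Gbp3 in the libraries where the family as a whole was high and in L7 replicate 2, but not in control replicate 2, where the family sum was about the same.

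Summed over the 8 genes, levels were 967, 487 and 958 FPKM in control replicates 1 to 3 and 319, 475 and 267 FPKM in L7 replicates 1 to 3. The sums of control replicate 2 and L7 replicate 2 were thus close. The 8 genes took 0.213%, 0.107% and 0.212% of reads in the control libraries and 0.0716%, 0.105% and 0.0588% in the L7 libraries. Gbp2 and Gbp3 together made up 57.0% to 59.8% of the summed FPKM in every library, so that share varied little while the sum varied. Their separate shares varied more. Gbp2 made up 36.1% and Gbp3 21.45% of the sum in control replicate 3, against 25.5% and 34.0% in L7 replicate 3. Among the genes that passed the filter, the control mean of Gbp2 stood at percentile 97.7 and that of Gbp6 at percentile 54.7. In L7 the highest was Gbp3 at percentile 92.8 and the lowest Gbp6 at percentile 39.5.

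The genes of the family resemble each other, so reads may have been assigned to a wrong copy. The counter the authors used, its strand setting and the length of the reads are not stated in the sources used here. To show where mixing could arise, each annotated transcript was divided into all windows of 50, 100 and 150 bases, and windows found exactly in another family gene were counted. Gbp6 stood apart, with 37.3% of its windows of 100 bases found in another family gene, nearly all in Gbp10, and 29.0% at 150 bases. The coding sequences of Gbp6 and Gbp10 were 98.4% identical. For the other members the share at 100 bases ran from 0% in Gbp2 and Gbp5 to 4.39% in Gbp8, and at 150 bases none exceeded 0.03%.

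Reads of Gbp6 and Gbp10 were therefore also summed, giving 2176, 994 and 3211 in control and 674, 1524 and 1114 in L7. In the sum, control replicate 2 was below L7 replicates 2 and 3, where for Gbp6 alone it was below L7 replicate 2 and above L7 replicate 3. These sums are not scaled for depth. Control replicate 2 held 19420012 reads in genes and L7 replicate 3 held 21187694, so part of the small gap to L7 replicate 3 is depth. A read-through gene model over both, Gm43302, held 59.0% of the 100-base windows of Gbp6 but was given a single read in all. Identity of coding sequence was higher on chromosome 5, at 89.6% to 92.9% over the 6 pairs of members there, than on chromosome 3, at 60.3% to 78.3% over 6 pairs. Between the chromosomes, 16 pairs were 60.9% to 74.9% identical. Gbp7 shared 9.59% of its 100-base windows and 8.77% of its 150-base windows with the gene model Gm43802. Values of Gbp6 and Gbp10 are uncertain on this account, as are those of Gbp7, Gbp8, Gbp9 and Gbp4 to a smaller extent. At 50 bases, Gbp8 shared 18.12% of its windows with the family, Gbp9 8.05% and Gbp4 7.53%. Gbp2, Gbp3 and Gbp5 shared at most 0.69% of their 100-base windows with any gene.

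**Figure D3:**
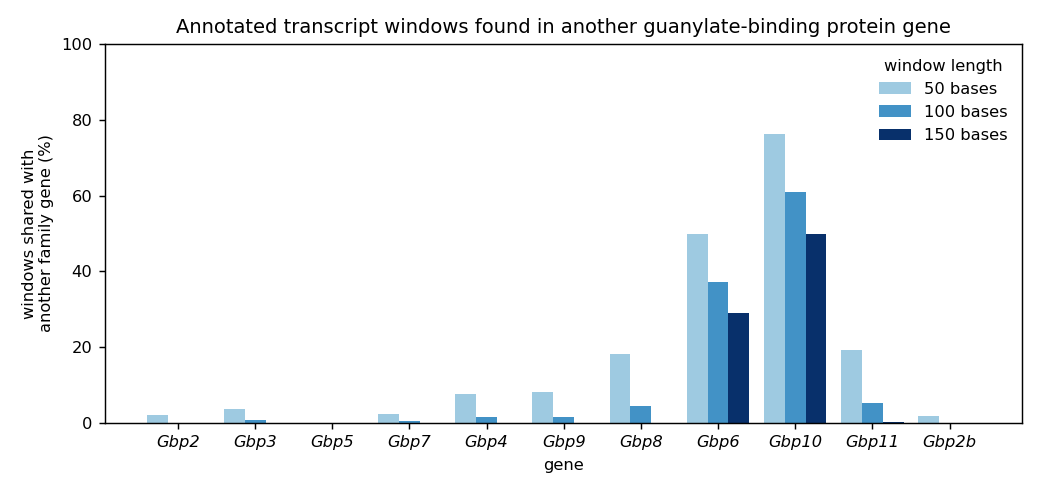
Percentage of annotated transcript windows of each family gene that were found exactly in another family gene, with bars for windows of 50, 100 and 150 bases on an axis from 0 to 100%. Gbp6 (37.3% at 100 bases) and Gbp10 (60.9%) stand above all other genes, and Gbp5 has no shared window.

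Over the 6 libraries, the 28 pairs of members had Pearson correlations of log2(FPKM + 1) from 0.837 (Gbp6 and Gbp9) to 0.994 (Gbp2 and Gbp5), with a median of 0.966. These 6 libraries share the group difference and their depths, so a correlation over them is a description only. By the same measure, the genes outside the family most like the mean profile of the 8 were sought among 10036 genes of at least 5 FPKM, and 62 of them exceeded 0.95. Among the 8 most alike were Tnfsf10 (0.992), Tmbim4 (0.991), Serpina3g (0.990), Irgm1 (0.989), Batf2 (0.987), Psme2b (0.986) and Tnfaip2 (0.985). Tnfsf10 encodes the death receptor ligand TRAIL and was at 23.0, 15.9 and 25.8 FPKM in control and 12.01, 16.2 and 11.9 FPKM in L7. Serpina3g, a serine protease inhibitor, was at 140.0, 60.3 and 135 FPKM in control and 39.8, 78.9 and 33.1 FPKM in L7. Both overlapped between the groups at replicate 2, as Gbp2 and Gbp4 did. Batf2, a transcription factor of activated macrophages, was at 41.2, 23.3 and 53.2 FPKM in control and 14.4, 22.3 and 13.8 FPKM in L7, with no overlap. Tmbim4 also had replicate 2 lowest in control and highest in L7, with means from 120 ± 15.6 FPKM in control to 96.4 ± 6.64 FPKM in L7. No function or control in common is drawn from these correlations.

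Genes of interferon gamma signalling were examined as a list of 11. The list also holds Socs1, Ciita and Nlrc5, so it is not only of genes upstream of the family. None of the 11 passed limma, 11 of 11 were lower in L7 (70.8% of all genes), and 5 of 11 did not overlap (13.7% of all genes). Their median log2 difference was -0.75, beside -0.15 over all genes. At an unadjusted p under 0.05 limma had 6 of them lower, beside 4.25% of all genes. Among the 3 with the highest level, only Irf1, the transcription factor, had groups that did not overlap. Irf1 was at 312, 175 and 328 FPKM in control and 114, 163 and 74.6 FPKM in L7 (log2 difference -1.23 ± 0.35, SE). The kinase gene Jak1 was at 172 ± 11.1 FPKM in control and 152 ± 24.1 FPKM in L7 (-0.18 ± 0.17, SE), and the receptor gene Ifngr1 at 142 ± 19.2 and 138 ± 42.1 FPKM (-0.08 ± 0.25, SE). The differences of Jak1 and Ifngr1 were nearer to the median of all genes than that of Irf1.

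Ifng is named here after its values were seen. Ifng, the gene of interferon gamma itself, was at 4.77, 2.53 and 5.73 FPKM in control (79, 39 and 112 reads) and at 0.796, 2.13 and 1.55 FPKM in L7 (14, 35 and 26 reads). The groups did not overlap but were close at control replicate 2 and L7 replicate 2, as in the family.

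The immunity-related GTPases are a separate family that acts on the same vacuoles, and the list of 8 also held Gvin1, a much larger inducible GTPase outside that family. Irgc1 was below the filter, and the other 7 were all lower in L7 (70.8% of all genes). Their median log2 difference was -1.13 beside -0.15 over all genes. None was called by limma, 3 did not overlap (13.7% of all genes), and 6 were at an unadjusted p under 0.05 in limma (4.25% of all genes). Gvin1 was in neither of these counts, at 2.13 ± 0.510 FPKM in control and 1.36 ± 0.262 FPKM in L7. Iigp1 was at 375, 169 and 352 FPKM in control and 64.8, 199 and 124 FPKM in L7. Igtp was at 274, 149 and 316 FPKM in control and 75.4, 162 and 99.96 FPKM in L7. In both genes control replicate 2 was below L7 replicate 2. Irgm1, a regulator of the other members, was at 188, 117 and 187 FPKM in control and 69.1, 106 and 69.3 FPKM in L7, without overlap.

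Effectors usually assigned to type I interferon were also lower in L7 in 20 of 20 genes (70.8% of all genes). Their median log2 difference was -0.65 beside -0.15 over all genes. None was called by limma, 18 of 20 were without overlap (13.7% of all genes), and 16 were at an unadjusted p under 0.05 in limma (4.25% of all genes). Control replicate 2 was the lowest control in 14 of 20 and at a median of 0.838 of the mean of the others, where the median was 0.487 for the 8 family genes, 0.530 for the immunity-related GTPases and 0.609 for the interferon gamma list. L7 replicate 2 was the highest L7 library in 5 of 20, at a median of 1.103 times the mean of the others, against 1.66 times for the family. Over all genes, control replicate 2 was the lowest control in 33.5% and L7 replicate 2 the highest L7 library in 34.2%. The differences between these lists were not tested. The effectors of highest level were Bst2, which tethers viruses to the cell, Irf7 and Oasl2. Bst2 was at 1145 ± 32.1 FPKM in control and 836 ± 108 FPKM in L7 and Oasl2 at 461 ± 52.1 and 305 ± 79.1 FPKM, both without overlap. Irf7, a transcription factor, was at 743 ± 161 and 564 ± 82.6 FPKM, with overlap.

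**Figure D4:**
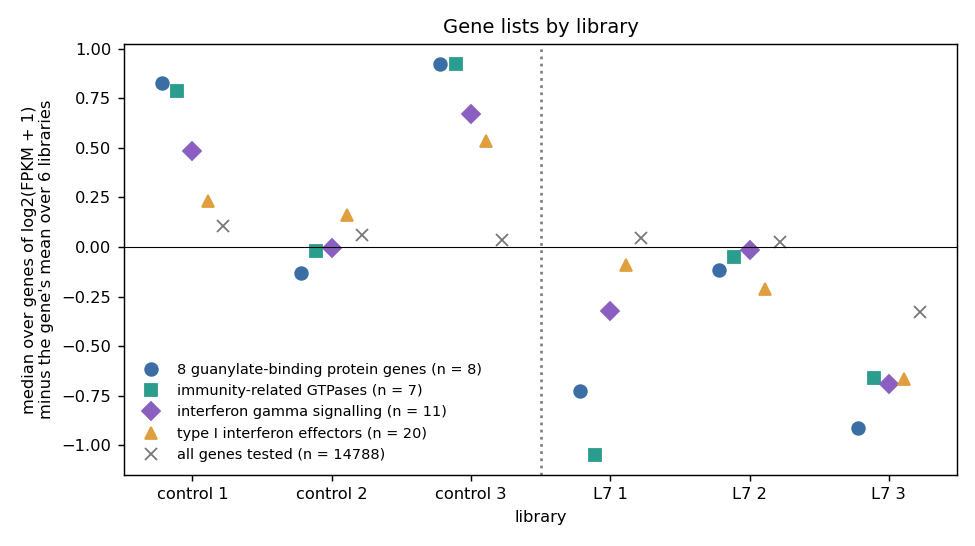
For each library, the median over the genes of a list of log2(FPKM + 1) minus that gene's mean over the 6 libraries, for the 8 family genes and 3 other lists beside all genes tested. The family stands at 0.83 and 0.92 in control replicates 1 and 3 but at -0.13 in control replicate 2 and -0.12 in L7 replicate 2, while the type I interferon effectors are at 0.16 and -0.21 in those libraries.

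Genes that act with or on the proteins had smaller median differences than the family. Of 10 inflammasome genes, 10 were lower in L7 (70.8% of all genes), with a median of -0.47. Only Casp4, the caspase that senses cytosolic lipopolysaccharide, did not overlap, where 13.7% of all genes did not (52.4 ± 12.8 FPKM in control, 28.9 ± 7.49 FPKM in L7). None of the 10 was called by limma and 1 was lower at an unadjusted p under 0.05, beside 4.25% of all genes. Il1b, the cytokine gene, was at 152 ± 38.2 and 107 ± 69.0 FPKM and Gsdmd, which forms the pyroptotic pore, at 59.3 ± 11.6 and 43.3 ± 12.2 FPKM. Of 10 genes of the ATG8 conjugation system, which targets these GTPases to vacuoles, 7 were lower (70.8% of all genes) and 3 higher. Their median was -0.17, and none was at an unadjusted p under 0.05 in limma. In 2 of the 10 the groups did not overlap, with L7 lower (13.7% of all genes). Gabarap was at 349 ± 21.1 and 284 ± 49.5 FPKM, Map1lc3a at 181 ± 32.1 and 269 ± 96.4 FPKM, and Map1lc3b at 56.5 ± 2.47 and 57.5 ± 4.24 FPKM. Of 5 prenylation enzymes, 4 were lower (70.8% of all genes) and 1 higher, and 0 were without overlap. Their median was -0.20, and none was at an unadjusted p under 0.05 in limma. Fnta was at 55.0 ± 1.96 FPKM in control and 56.6 ± 3.05 FPKM in L7, Icmt at 25.8 ± 2.29 and 21.9 ± 4.28 FPKM, and Fntb at 18.4 ± 1.32 and 18.2 ± 1.13 FPKM. The medians of both lists were near the -0.15 of all genes.

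Markers of cells that can express the family also varied between libraries. The summed FPKM of 13 T and NK lymphocyte markers, all detected in every library, was 187, 133 and 253 in control and 125, 157 and 91.3 in L7. Control replicate 2 was the lowest control in 12 of the 13 (33.5% of all genes), the place it held in the family. L7 replicate 2 was the highest L7 library in 11 of 13 (34.2% of all genes), also as in the family. It was highest too in 5 of 5 dendritic cell and 2 of 2 B lymphocyte markers that passed the filter. In those lists, however, control replicate 2 was the lowest control in only 2 of 5 and 1 of 2. Of 5 neutrophil markers that passed, control replicate 2 was lowest in 5 and L7 replicate 2 highest in 0. Of the 13 lymphocyte markers, 10 were lower (70.8% of all genes) and 3 higher in L7. In 3 the groups did not overlap, with L7 lower (13.7% of all genes). The sum of 12 macrophage and monocyte markers, all detected, was 2859.9 to 4367 in control and 1925 to 4190.1 in L7, and control replicate 2 was the lowest control in 10 of 12 but L7 replicate 2 the highest in 1 of 12. Neutrophil markers (6) summed to 164 to 269 in control and 51.0 to 299 in L7, dendritic cell markers (7) to 32.9 to 42.7 and 17.9 to 54.1, and B lymphocyte markers (5) to 16.4 to 34.0 and 16.4 to 28.4, with Ms4a1 at 0 in L7 replicate 3. Endothelial markers (7) summed to 188 to 230 in control and 200 to 217 in L7 and fibro-adipogenic progenitor markers (7) to 6068 to 7404 and 5457 to 6555. Satellite cell and myoblast markers (6) summed to 259.9 to 334 in control and 142 to 282 in L7. The adult fast fibre sum was 22327 to 31306 in control and 33757 to 100669 in L7, so the defining genes of the labelled muscle were abundant in every library. The part of any of these cell types in the result was not tested.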

How the data were processed

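Gene levels were measured by RNA sequencing of poly-T selected RNA (NEBNext Ultra kit) in 3 control and 3 L7 libraries of muscle. The authors deposited FPKM per gene and library, and a comparison table with each group's mean scaled read count (a signal with no library values), log2 fold changes, p-values and adjusted p-values. Per the submitters' processing notes, the build was mm10, and DESeq 1.12.0, HISAT2 2.0.4, TopHat2 2.0.12 and Bowtie2 2.2.3 were used. Which program counted reads, its strand setting and the annotation are not stated in the sources used here. Ensembl identifiers matched a symbol for 51633 of 52369 genes.

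The members and gene lists were chosen with earlier results of these data known. Genes with a mean of at least 1 FPKM were fitted with limma 3.58.1 in R 4.3.3 on log2(FPKM + 1) with a mean-variance trend, without covariates, adjusted over all 14788 genes at 0.05. The text names the 8 members, the other family genes, the 3 genes of highest level in each pathway list, and the 8 genes whose log2(FPKM + 1) correlated best with the members' mean profile. Some genes that this rule or a count covers are not reported here by name. Whole reads were recovered from the FPKM steps and the authors' means, and 99.995% of values above 0 were within 0.05 of a whole number. These reads gave the depths and a voom fit with TMM scaling. The scripts were tested on simulated data.

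The main fit did not pair libraries by replicate number. The correlations of same-numbered libraries' deviations from their group means were 0.322, -0.0652 and 0.0871. With 3 libraries a group, these values cannot exclude a pairing. Alternatives tried were a pseudocount of 0.1, no filter and a mean of at least 5 FPKM, 2 other scalings, library weights, the replicate number as a block, leaving out each library, and, chosen after seeing the data, a sex-linked covariate and a rescaled fit without L7 replicate 3.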

Additional observations from a re-analysis of the deposited data

How the results depend on the processing

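All 128 recomputed log2 differences of the 8 genes were negative and within 1 SD of the reported values. Much of this was fixed in advance, since the members were chosen as lower in L7. A change of filter or the replicate block cannot alter a log2 difference. Leaving out a library of a group of 3 cannot move it by 1 SD between libraries. Over 16 alternatives their median ran from -1.37 (without control replicate 2) to -0.79 (library weights), where it is reported as -1.001. The number of the 8 genes whose groups did not overlap, reported as 4, was 3 under either other scaling (background 8.87% and 9.12%) and 4 to 8 when a library was left out, with 8 without control replicate 2 (background 22%) and 8 without L7 replicate 2 (21.3%). It stayed at 4 without each of the other libraries, where the background rose to 26.9% without control replicate 3 and 27.1% without L7 replicate 1. Leaving out a library lowers the number of comparisons that must hold. Median of ratios scaling moved the median of all genes from -0.15 to -0.0029 and that of the 8 to -0.84.

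The count of genes called by limma, reported as 0, was 3 with library weights, 0 to 1 when a library was left out and 1 under median of ratios scaling without L7 replicate 3. None belonged to the family or the lists. Named after their values were seen, they included Gm20544 and Novel00250 with library weights and Gm5559 without L7 replicate 1. The cause was not tested. With the replicate number as a block, 0 genes were called, as in the main fit. Each replicate number occurs in both groups, so the block could not change the median of the 8 from -1.001. With 3 libraries a group, an exact permutation test of a single gene cannot go below p = 0.1. Control replicate 2 and L7 replicate 2 decide whether the groups overlap, Gbp6 cannot be separated fully from Gbp10, and Gbp2b and Ifng rest on few reads.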
